A study of Papio hamadryas with 12 samples.

Results

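High LDL-C baboons were compared with low LDL-C baboons after both had eaten a high cholesterol, high fat (HCHF) diet, by RNA sequencing of their white blood cells. Of the 27533 genes in the deposited table, 6742 entered the comparison, namely 6720 autosomal genes and 22 mitochondrially encoded genes that had at least 10 counts in each of the 6 HCHF libraries. The animals were 3 high LDL-C baboons (baboons 4, 5 and 6) and 3 low LDL-C baboons (baboons 1, 2 and 3), with 1 HCHF library each. All 6 were Papio hamadryas for which the labels name no allele and no agent other than the diet, and the phenotype was a natural difference in the plasma concentration of low-density lipoprotein cholesterol. The HCHF diet supplied 40% of calories as fat and 1.7 mg cholesterol per kcal for 7 weeks, against 4% and 0.03 mg per kcal in the chow eaten before it, and the same 6 animals also gave the chow libraries. The paper chose the animals as 3 half-sib pairs whose members contrasted in LDL-C, but the labels do not say which animals form a pair. With 3 animals per phenotype and the pairs unknown here, the phenotype and the ancestry of single animals cannot be told apart. The ages of the animals were not used here.

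Low-density lipoprotein carries cholesterol in plasma, and cells take it up through the LDL receptor when their own cholesterol synthesis does not meet demand. Dietary cholesterol and saturated fat raise LDL-C to a degree that differs between individuals and is partly inherited, in baboons as in humans. White blood cells meet these particles directly: monocytes leave the blood for the artery wall, take up modified LDL and become foam cells, and lymphocytes join them in the lesion. The buffy coat from which the RNA came is the layer between plasma and red cells in centrifuged blood, and it holds white cells and platelets.

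The table lists genes by Ensembl identifier, with positions on the baboon assembly PapAnu2 and with no symbols, and identifiers were not matched to names here. Genes are therefore described by position, level, span and chromosome, and white cell, red cell and platelet markers could not be looked up in these libraries. A level is given as CPM, the usual depth-scaled count, with the library total taken without the 2 most abundant genes, a scale that does not correct for gene length. In bulk RNA a smaller number of cells of a type and less RNA per cell cannot be told apart.

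The HCHF libraries held 4461955, 3731940 and 3434628 counts in high LDL-C baboons 4, 5 and 6, against 4921143, 6347851 and 4837375 in low LDL-C baboons 1, 2 and 3, so every high LDL-C library was smaller than every low LDL-C library. Without the 2 most abundant genes the totals overlapped, with 1944195 to 2874662 counts in high LDL-C baboons and 1978885 to 2499648 in low LDL-C baboons. Between 8373 and 11195 genes reached 10 counts in the high LDL-C libraries, and between 8315 and 8977 in the low LDL-C libraries. Pearson correlations of log2(CPM + 1) between libraries over the 6742 genes ran from 0.821 to 0.913 among high LDL-C baboons, from 0.833 to 0.934 among low LDL-C baboons, and from 0.799 to 0.937 between the phenotypes. The libraries therefore did not separate by phenotype. The most alike of all pairs, at 0.937, were high LDL-C baboon 4 and low LDL-C baboon 2, whose libraries carried the same index sequence, while the other pairs with a shared index were at 0.811 and 0.818.

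The phenotypes did not overlap in how the counts were spread over abundant and scarce genes. The 2 most abundant genes took 43.5%, 47.9% and 16.3% of the total in high LDL-C baboons 4, 5 and 6, against 49.2%, 63.6% and 59.1% in low LDL-C baboons 1, 2 and 3, and the phenotypes did not overlap. After those 2 genes were set aside, the 100 most abundant remaining genes, ranked in each library separately, still took 49.8%, 49.3% and 51.3% of counts in high LDL-C baboons, against 64.1%, 60.6% and 61.9% in low LDL-C baboons. This share was lower in every high LDL-C library, and it varied by only a few percentage points within a phenotype. Both differences had an exact permutation p of 0.1 (two-sided), which is the smallest p that 3 against 3 libraries allow, and an adjusted exact permutation p of 0.233 over the 7 library measures compared.

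**Figure D1:**
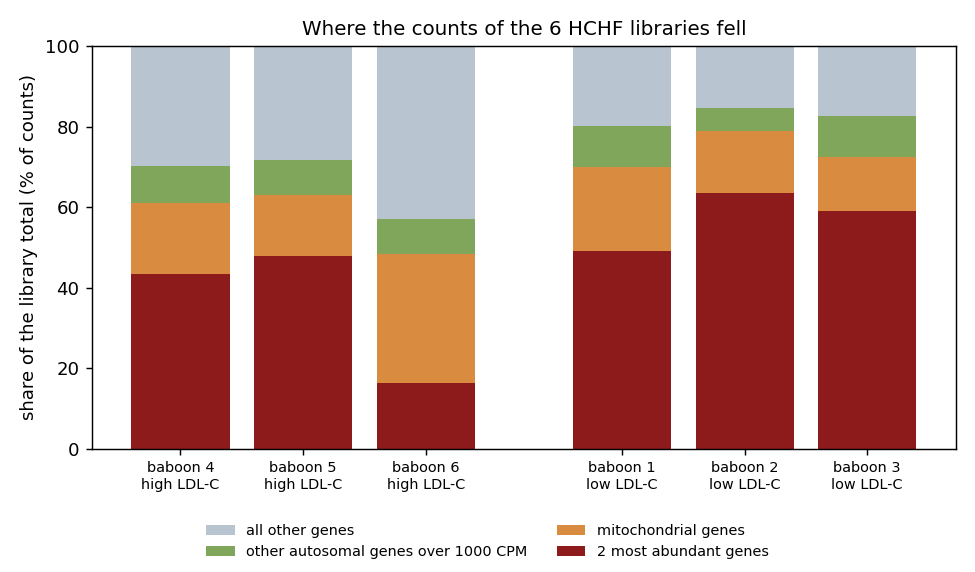
Share of each HCHF library's total count, in percent, taken by the 2 most abundant genes, the mitochondrially encoded genes, the other autosomal genes over 1000 CPM and all remaining genes, with 1 bar per baboon. The segment of the 2 genes spans 16.3% to 47.9% in the high LDL-C bars and 49.2% to 63.6% in the low LDL-C bars.

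The first of the 2 genes lies on chromosome 14, from 60046720 to 60049466. Its level, which is not bounded by the total because the scale leaves this gene out of it, was 497062, 434438 and 91160 CPM in high LDL-C baboons 4, 5 and 6, against 676551, 1043651 and 836552 CPM in low LDL-C baboons 1, 2 and 3. It was thus below every low LDL-C value in each high LDL-C baboon, and baboon 6 stood far below the rest. Its log2 fold change (high over low) was -1.32 ± 0.57 (SE), with an unadjusted p of 0.033 and an adjusted p of 0.321 by edgeR. The second lies on chromosome 20, from 39182 to 41379, and had 272886, 485091 and 103634 CPM in high LDL-C baboons, against 292183, 700368 and 607943 CPM in low LDL-C baboons. Here the phenotypes overlapped, because high LDL-C baboon 5 lay above low LDL-C baboon 1, and the log2 fold change was -0.89 ± 0.56 (unadjusted p = 0.13, edgeR).

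The genes beside these 2 were followed as well. On chromosome 20, the gene from 33697 to 34598 had 117, 171 and 39.7 CPM in high LDL-C baboons, against 127, 370 and 494 CPM in low LDL-C baboons, a log2 difference of -1.60 (unadjusted p = 0.013, edgeR). The gene from 42735 to 46902 had 13041, 29643 and 6099 CPM in high LDL-C baboons, against 13716, 37117 and 24312 CPM in low LDL-C baboons, and the gene from 47428 to 49179 ran from 49.4 to 272 CPM in high LDL-C baboons, against 187 to 466 CPM in low LDL-C baboons. All 4 genes of this stretch of chromosome 20 had their lowest value in baboon 6. The 3 genes of the chromosome 14 stretch were lowest in baboon 6 as well, but the neighbours did not share the order of the other animals. The gene from 60019646 to 60020727 had 2269, 6555 and 231 CPM in high LDL-C baboons, against 7679, 929 and 1170 CPM in low LDL-C baboons, a spread of more than 10-fold in which the phenotypes overlapped (log2 fold change -0.11, unadjusted p = 0.90, edgeR). The gene from 60003526 to 60005312 was also highest in high LDL-C baboon 5 and low LDL-C baboon 1, at 224 and 213 CPM, and was at 11.1 to 60.7 CPM in the other 4 libraries. The authors' counting divided reads among matching transcripts by expectation maximization. Values of neighbouring genes are therefore uncertain where their sequences are alike, which was not tested here.

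Across all 6742 genes, none differed between high and low LDL-C baboons at the study's threshold, an adjusted p under 0.20 with an unadjusted p under 0.05 (0% called in either direction; lowest adjusted p 0.321, edgeR with Benjamini-Hochberg adjustment). At an unadjusted p under 0.05 alone, 937 genes (13.9%) were higher and 69 (1.02%) were lower in high LDL-C baboons. The median log2 fold change of all genes was 0.44, with 90% of genes between -0.48 and 1.25, and 5289 genes (78.4%) lay above 0. This shift of 0.44 followed the choice of scale. With TMM factors, which centre the bulk of genes, the median was -0.01, the same unadjusted threshold gave 144 higher (2.14%) and 281 lower (4.17%), and again no gene was called (lowest adjusted p 0.269, edgeR). All 144 and all 69 passed under both scales. DESeq2 called 96 genes, 19 higher and 77 lower, and limma after quantile normalization called none. Single libraries also decided the count: without high LDL-C baboon 4 there were 39 called genes, and without low LDL-C baboon 2 there were 1610, of which 1535 were higher in high LDL-C baboons. With the index sequence as a term, 21 genes were called, 17 of them higher.

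The values of the 6 libraries did not overlap between phenotypes, with high LDL-C on top, in 1321 genes (19.6%), and with high LDL-C below in 72 genes (1.07%). Under TMM factors these counts were 242 (3.59%) and 386 (5.73%), and 242 and 72 genes did not overlap under both scales. The typical SD of a gene's log2(CPM + 1) among 3 animals was 0.47 in high LDL-C baboons and 0.45 in low LDL-C baboons. The median log2(CPM + 1) of a library had a pooled SD of 0.125 among animals of 1 phenotype. This measure is unlike the shift of 0.44, a median of fitted differences per gene that TMM factors set near 0.

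**Figure D2:**
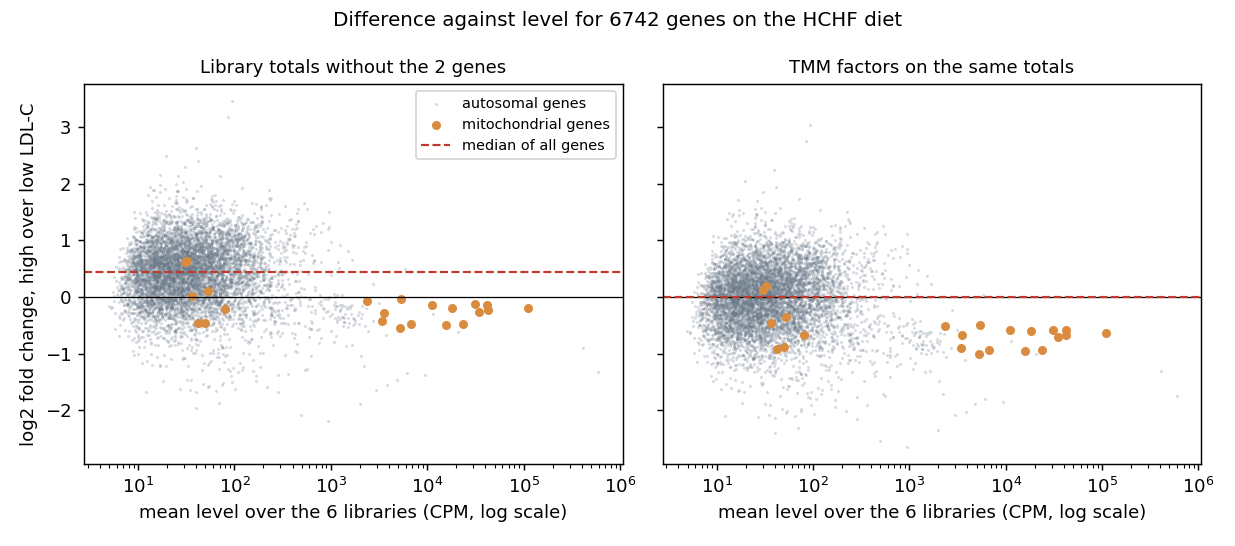
Log2 fold change of high over low LDL-C baboons against mean level in CPM (log axis), with 1 point per gene for 6742 genes, under totals without the 2 genes (left) and TMM factors (right). Dashed lines mark the median of all genes, 0.44 on the left and -0.01 on the right, and the mitochondrially encoded genes (orange) at high level lie below both.

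Abundant genes stood below the rest in high LDL-C baboons, relative to the median of all genes. The 94 genes over 1000 CPM had a median log2 fold change of -0.31, which is 0.75 below the median of all genes, and only 11 of them were above 0. None of the 94 was higher without overlap under either scale. On the main scale 7 were lower without overlap, against 1.07% of all genes, and under TMM factors 23 were, against 5.73% of all genes. In the 5 classes of lower level the medians lay between 0.32 and 0.51, and 74.6% to 81.2% of genes were above 0. Without the 2 leading genes, the gap between genes over 1000 CPM and all genes was -0.74 on the main scale and -0.78 under TMM factors, and it lay between -1.05 and -0.61 when each library was left out in turn. The same gap taken within a library had a pooled SD of 0.55 among animals of 1 phenotype. On totals that include the 2 genes, the median of all genes was 1.04 and the gap was -0.86, and quantile normalization, which equalizes the distributions, set the gap to -0.0022. Since every library's total is fixed by its scale, lower shares of abundant genes and higher shares of the other genes are the same measurement.

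The abundant class comprised the 2 leading genes, 15 mitochondrially encoded genes and 77 autosomal genes. The 77 autosomal genes had a median log2 fold change of -0.35, with 11 above 0, and took 16.3%, 16.8% and 10.4% of counts in high LDL-C baboons, against 19.9%, 15.8% and 25% in low LDL-C baboons. Baboons 4 and 5 lay above baboon 2, so the summed share overlapped (exact permutation p = 0.3, two-sided). Several single genes of the class did not overlap. On chromosome 1, the gene from 168572975 to 168573792 had 8193, 4643 and 2981 CPM in high LDL-C baboons, against 10888, 9491 and 20618 CPM in low LDL-C baboons (-1.37 on the log2 scale). For the chromosome 19 gene from 42236019 to 42237980, levels were 3933, 3810 and 2607 CPM in high LDL-C baboons, against 6583, 6864 and 12939 CPM in low LDL-C baboons (-1.35). The gene on chromosome 17 from 23813322 to 23815722 had 3390, 1392 and 1119 CPM in high LDL-C baboons, against 4675, 3807 and 8778 CPM in low LDL-C baboons (-1.55). In all 3 the lowest library was high LDL-C baboon 6 and the highest was low LDL-C baboon 3. These 3 genes are shown for their level, chosen after their values were seen.

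A smaller group of abundant genes lay above 0 on the main scale, where the median of all genes was 0.44. On chromosome 4, the gene from 29387902 to 29390838 had 9417, 6799 and 4382 CPM in high LDL-C baboons, against 5181, 4078 and 5277 CPM in low LDL-C baboons, a log2 fold change of 0.50. For the chromosome 4 gene from 30699775 to 30702811, levels were 2420, 2103 and 1302 CPM in high LDL-C baboons, against 1345, 1190 and 771 CPM in low LDL-C baboons, a log2 fold change of 0.82. Both overlapped between phenotypes through high LDL-C baboon 6, and neither reached an unadjusted p under 0.05 (0.28 and 0.092, edgeR). Against the median of all genes they stood only 0.06 and 0.38 higher. Under TMM factors their log2 fold changes were 0.04 and 0.37 (unadjusted p = 0.94 and 0.45, edgeR). Both were likewise picked after their values were seen, as abundant genes above 0.

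Mitochondrial messengers encode subunits of the respiratory chain and ATP synthase and are made from the organelle's own genome, together with its ribosomal and transfer RNAs. Together the mitochondrially encoded genes took 30.8%, 29.1% and 38.4% of counts without the 2 genes in high LDL-C baboons, against 40.7%, 42.2% and 32.6% in low LDL-C baboons. The shares overlapped, because high LDL-C baboon 6 lay above low LDL-C baboon 3 (exact permutation p = 0.2, two-sided). Of the 22 mitochondrial genes, 4 had a log2 fold change above 0, and none reached an unadjusted p under 0.05 on the main scale. The median of the 22 was -0.20, which lay 0.64 below that of all genes. The 4 above 0 spanned 60 to 76 bp, and none of the 15 over 1000 CPM was above 0.

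Taken singly, 3 of the 22 mitochondrial genes were lower without overlap in high LDL-C baboons on the main scale, against 1.07% of all genes. Under TMM factors 14 were, against 5.73% of all genes. At an unadjusted p under 0.05 (edgeR), 3 were lower under TMM factors, against 4.17% of all genes. The most abundant, at positions 5332 to 6901 of the mitochondrial genome, had 110332, 84271 and 113420 CPM in high LDL-C baboons, against 117023, 139903 and 94568 CPM in low LDL-C baboons, a log2 fold change of -0.19 ± 0.45. The gene at 14168 to 15309 had 18962, 15765 and 24531 CPM in high LDL-C baboons, against 29227, 25765 and 27701 CPM in low LDL-C baboons (-0.48 ± 0.44). This gene, and the short genes at 7720 to 7785 and 15374 to 15442, were the 3 that did not overlap on the main scale. The gene with the lowest p of the 22, at 6873 to 6942, was among the 4 above 0, with 23.4, 65.3 and 28.9 CPM in high LDL-C baboons, against 31.2, 17.7 and 26.3 CPM in low LDL-C baboons (0.64 on the log2 scale, unadjusted p = 0.21, edgeR), and its high value came from baboon 5. The most negative log2 fold change among the abundant mitochondrial genes was that of the gene at 9479 to 9825, with 5465, 3268 and 4004 CPM in high LDL-C baboons, against 6493, 6764 and 5441 CPM in low LDL-C baboons (-0.55 ± 0.44), where baboon 4 just overlapped baboon 3.

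Short genes also stood apart. The 286 genes that span under 1 kb from start to stop had a median log2 fold change of -0.14, which is 0.58 below that of all genes, and 114 of them (39.9%) were above 0. Genes of 1 to 5 kb had a median of 0.26, those of 5 to 20 kb and of 20 to 50 kb had 0.49, those of 50 to 100 kb had 0.47 and those over 100 kb had 0.42. The genes over 1000 CPM had a median span of 1875.5 bp, so the classes were also crossed. Autosomal genes under 1 kb had medians between -0.38 and 0.03 in the 6 level classes, and those of 1 kb or over had medians between 0.33 and 0.53 in the 5 classes up to 1000 CPM and of -0.30 above it. The short genes were below the longer genes at every level. The gap was widest at 100 to 1000 CPM (-0.22 against 0.47) and narrowest over 1000 CPM (-0.38 against -0.30).

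**Figure D3:**
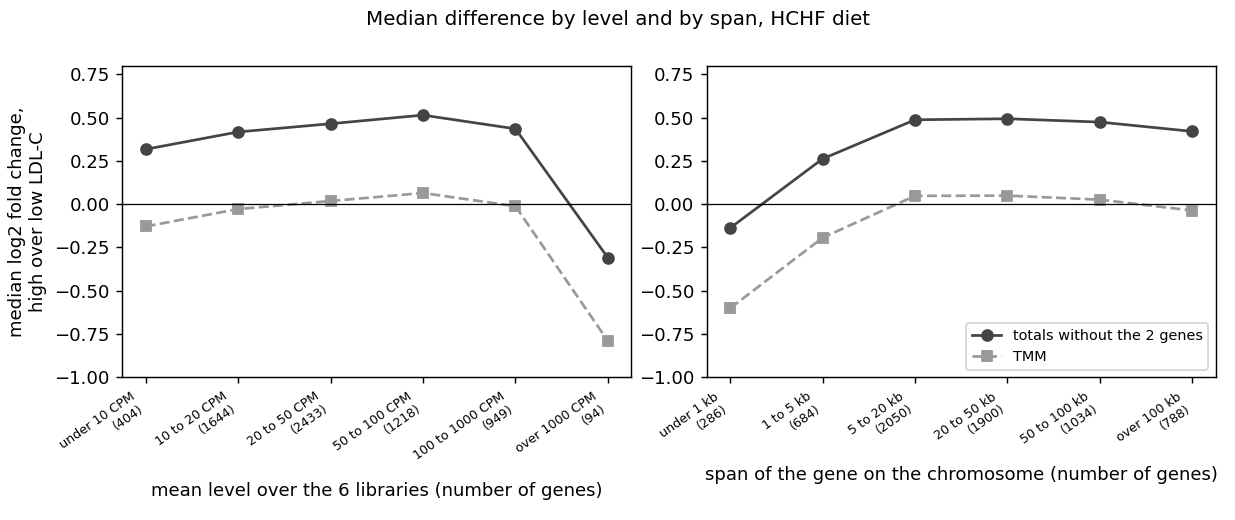
Median log2 fold change of high over low LDL-C baboons by class of mean level (left) and of genomic span (right), with the number of genes under each class, for totals without the 2 genes (circles) and TMM factors (squares). Genes over 1000 CPM (-0.31) and genes under 1 kb (-0.14) are the low points on the first scale.

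The summed share of the autosomal genes under 1 kb was 7.73%, 7.21% and 4.74% of counts in high LDL-C baboons, against 9.32%, 5.83% and 11.4% in low LDL-C baboons. Low LDL-C baboon 2 lay within the high LDL-C values, and the exact permutation p was 0.3 (two-sided). By chromosome, the medians ran from 0.65 on chromosome 20 (308 genes), 0.58 on chromosome 19 (539 genes) and 0.54 on chromosome 16 (447 genes) down to 0.26 on chromosome 5 (201 genes) and 0.18 on chromosome 18 (91 genes). The phenotypes did not overlap, with high LDL-C above, in 27.3% of the genes of chromosome 16, against 19.6% of all genes. On chromosomes 20 and 18 this held for 26.6% and 7.69% of genes. Under TMM factors the counts on chromosomes 16, 20 and 18 were 15, 16 and 0 genes, against 3.59% of all genes. Genes with several annotated transcripts (854) had a median of 0.50, and genes with 1 transcript (5888) had 0.43. Gene length, base composition and RNA quality were not separated from these classes.

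The leading genes were the 12 in each direction with the lowest p among genes at an unadjusted p under 0.05 whose phenotypes did not overlap. These values chose them and are given as a description, and each of the 24 had an adjusted p of 0.321 (edgeR). For the 12 genes on the higher side, log2 fold changes lay between 1.7 and 2.64 on the main scale and between 1.24 and 2.24 under TMM factors, where 8 of the 12 still did not overlap. They had a median level of 22.2 CPM and a median span of 16702.5 bp. The 12 lower genes had log2 fold changes between -2.08 and -1.22, and between -2.54 and -1.66 under TMM factors, where all 12 still did not overlap. Their median level was 46.3 CPM and their median span 23957.5 bp.

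ENSPANG00000007731, on chromosome 14 from 8518347 to 8539395, led the higher genes. It had 30.5, 45.8 and 42.8 CPM in high LDL-C baboons 4, 5 and 6, against 8.80, 9.94 and 11.1 CPM in low LDL-C baboons 1, 2 and 3. The 3 animals of each phenotype lay close together, with means of 39.7 ± 8.07 and 9.95 ± 1.16 CPM (SD, n = 3 each). The low LDL-C values rested on few counts, so their closeness says little about the animals. The log2 fold change was 1.99 ± 0.45 (SE), or 1.55 above the median of all genes. ENSPANG00000016825, on chromosome 12 from 103636568 to 103641153, had the greatest log2 fold change of the 12, 2.64 ± 0.62. Its values of 39.7, 140 and 24.7 CPM in high LDL-C baboons, against 11.6, 14.7 and 6.06 CPM in low LDL-C baboons, show that much of the difference came from baboon 5.

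Other higher genes differed in how evenly the animals shared the difference. The gene on chromosome 10 from 76699902 to 76707016 had 167, 82.8 and 206 CPM in high LDL-C baboons, against 46.8, 51.9 and 41.4 CPM in low LDL-C baboons, with low LDL-C animals close together. On chromosome 1, the gene from 9315284 to 9321033 had 255, 442 and 372 CPM in high LDL-C baboons, against 95.6, 150 and 39.9 CPM in low LDL-C baboons. A second gene lay close to it on chromosome 1, from 9495057 to 9545422, and had 29.8, 11.8 and 25.7 CPM in high LDL-C baboons, against 4.8, 6.92 and 6.57 CPM in low LDL-C baboons. These 2 neighbours had their low point among high LDL-C animals in different baboons, 4 for the first and 5 for the second. For the chromosome 20 gene from 301373 to 399107, levels were 40.5, 181 and 128 CPM in high LDL-C baboons, against 22, 38.5 and 18.7 CPM in low LDL-C baboons, so that baboon 4 was barely above the highest low LDL-C animal. The gene on chromosome 3 from 1222430 to 1258508 had 7.93, 22.1 and 69.9 CPM in high LDL-C baboons, against 5.20, 6.48 and 6.06 CPM in low LDL-C baboons, and baboon 6 carried most of that difference.

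The remaining 5 higher genes lay on chromosomes 2, 10, 12, 14 and 16. That on chromosome 12 from 80147768 to 80148761 was the only one of the 12 under 1 kb, and it had 42.0, 113 and 59.8 CPM in high LDL-C baboons, against 11.6, 29.8 and 13.1 CPM in low LDL-C baboons. On chromosome 14, the gene from 108355499 to 108361522 had 16.3, 15.9 and 50.1 CPM in high LDL-C baboons, against 5.20, 7.78 and 5.56 CPM in low LDL-C baboons. The other 3 lay at 4.4 to 8.65 CPM in low LDL-C baboons, near the limit of 10 counts, and at 7.54 to 36.5 CPM in high LDL-C baboons. As near this limit were the low LDL-C values of 3 genes described above. They were that on chromosome 14 from 108355499, that on chromosome 1 from 9495057 and that on chromosome 3 from 1222430. The 6.06 CPM of ENSPANG00000016825 in low LDL-C baboon 3 also lay near it.

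ENSPANG00000000653, on chromosome 8 from 21530438 to 21574635, led the lower genes. It had 315, 131 and 121 CPM in high LDL-C baboons 4, 5 and 6, against 859, 887 and 649 CPM in low LDL-C baboons 1, 2 and 3. Even the highest high LDL-C animal had less than any low LDL-C animal by a wide margin, and the log2 fold change was -2.08 ± 0.50. ENSPANG00000008973, on chromosome 1 from 68298435 to 68425552, had 37.3, 28.3 and 23.3 CPM in high LDL-C baboons, against 64.4, 133 and 128 CPM in low LDL-C baboons, a log2 fold change of -1.87 ± 0.46. The most abundant of the 12, on chromosome 2 from 85956223 to 85974412, had 927, 1019 and 598 CPM in high LDL-C baboons, against 2528, 2264 and 4656 CPM in low LDL-C baboons (-1.89 ± 0.48). Low LDL-C baboon 3 was the highest animal here.

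The other lower genes spanned a wide range of level. The gene on chromosome 4 from 1480008 to 2104189, the longest of the 24, had 5.16, 5.66 and 6.26 CPM in high LDL-C baboons, against 12.4, 29.4 and 13.6 CPM in low LDL-C baboons. Its high LDL-C values lay near the limit of 10 counts in each library, so their closeness says little about the animals. For the chromosome 17 gene from 76651383 to 76652469, levels were 238, 107 and 61.2 CPM in high LDL-C baboons, against 339, 388 and 583 CPM in low LDL-C baboons. The gene on chromosome 4 from 31871434 to 31873431 had 93.6, 111 and 73.1 CPM in high LDL-C baboons, against 295, 275 and 157 CPM in low LDL-C baboons. All 3 kept the phenotypes apart, which their selection required. Another gene, on chromosome 3 from 156443081 to 156474577, had the smallest difference of the 12 (-1.22 ± 0.41) and a narrow spread in both phenotypes. It had 11.1, 10.3 and 8.70 CPM in high LDL-C baboons, against 19.6, 27.2 and 23.2 CPM in low LDL-C baboons. Its high LDL-C values rested on few counts, so their narrow spread says little about the animals. In the 69 genes lower at an unadjusted p under 0.05, whose selection already places the lowest value among high LDL-C animals in nearly every case, baboon 6 was the lowest of the 6 libraries in 52, baboon 5 in 10 and baboon 4 in 6. Over all 6742 genes baboon 6 was the lowest in 463, and it had the smallest share in the 2 abundant genes. With the log2 of that share as a term in the fit, 14 of the 24 leading genes stayed at an unadjusted p under 0.05 (edgeR). The genes were chosen on these libraries, and the share itself did not overlap between phenotypes. This count therefore cannot tell the share and the phenotype apart.

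**Figure D4:**
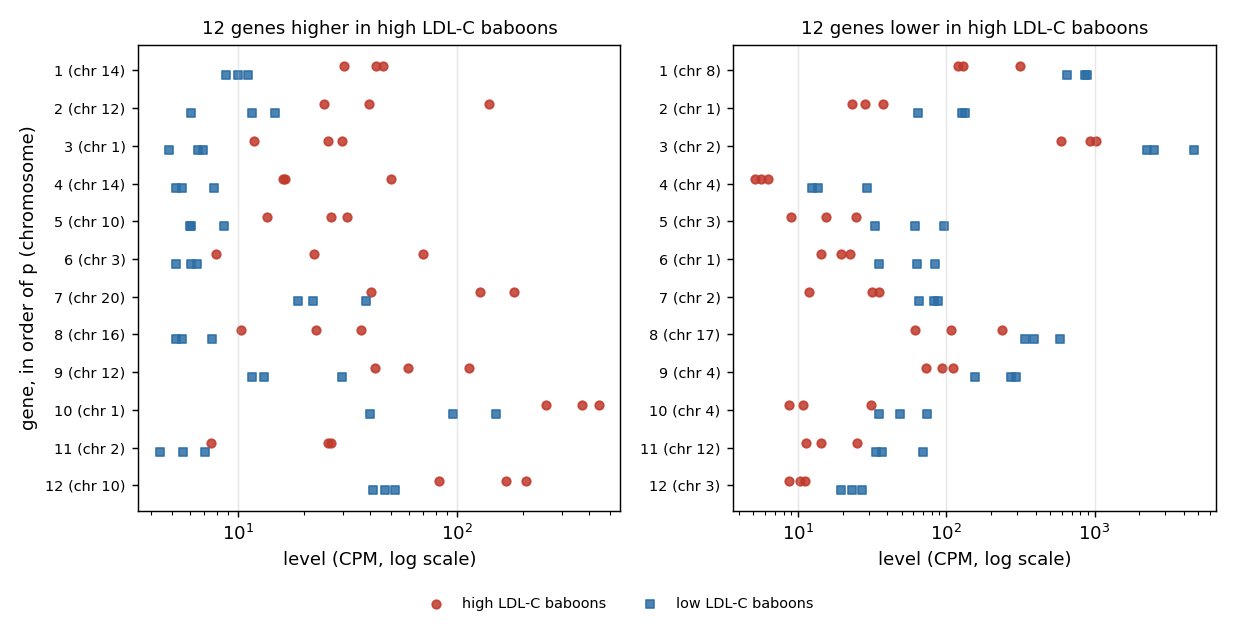
Level in CPM (log axis) of the 12 genes higher (left) and the 12 genes lower (right) in high LDL-C baboons on the HCHF diet, in order of p, with 1 point per animal (red circles high LDL-C, blue squares low LDL-C, n = 3 each). The first higher gene lies at 30.5 to 45.8 CPM against 8.80 to 11.1 CPM, and the first lower gene at 121 to 315 CPM against 649 to 887 CPM.

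The animals contributed unequally on the main scale, where 78.4% of genes had a log2 fold change above 0, against 49.6% under TMM factors. Over all 6742 genes, the highest of the 6 values was in high LDL-C baboon 4 for 1777 genes, in baboon 5 for 2031 and in baboon 6 for 1451, against 260, 351 and 872 genes in low LDL-C baboons 1, 2 and 3. Among the 937 genes higher at an unadjusted p under 0.05, baboon 5 was the highest in 573, baboon 6 in 209 and baboon 4 in 155. Some genes were high in 1 animal alone. In 17 genes a single library was over 4-fold above the next, and this library was high LDL-C baboon 6 in 13, high LDL-C baboon 5 in 3 and low LDL-C baboon 1 in 1.

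The extreme case was a gene on chromosome 3 from 80212454 to 80228545, which had 5.95, 11.3 and 500 CPM in high LDL-C baboons, against 12, 22 and 12.6 CPM in low LDL-C baboons. Without baboon 6 the high LDL-C animals were at or below the low LDL-C animals. A pair of genes on chromosome 10 shared a high value in baboon 5. The gene from 64007744 to 64008059 had 111, 899 and 96.4 CPM in high LDL-C baboons, against 137, 23.8 and 168 CPM in low LDL-C baboons, and the gene from 63992756 to 63994613 had 309, 1912 and 290 CPM in high LDL-C baboons, against 290, 89.5 and 477 CPM in low LDL-C baboons. Low LDL-C baboon 2 was the lowest animal for both. On chromosome 4, the gene from 69222636 to 69224899 had 77, 813 and 122 CPM in high LDL-C baboons, against 4254, 52.7 and 299 CPM in low LDL-C baboons, so that the highest and the lowest of the 6 animals were both low LDL-C baboons.

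The same animals had been sampled on chow, and their chow values are set beside those on the HCHF diet. Of all 12 libraries, low LDL-C baboon 2 on chow had the highest share of its counts in the 2 abundant genes, 89.3%, which left 915087 counts for all others. Low LDL-C baboon 1 on chow had 16.8%, close to the 16.3% of high LDL-C baboon 6 on the HCHF diet. On chow this share overlapped between the phenotypes, with 51.7% to 55.6% in high LDL-C baboons. So did that of the 100 most abundant remaining genes, at 46.8% to 52.1% in high against 47.1% to 67.5% in low LDL-C baboons. With 51 genes called on chow (3 higher, 0.0445%; 48 lower, 0.712%; edgeR with Benjamini-Hochberg adjustment), none was called without baboon 2 and none under TMM factors.

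Of the 937 genes that were higher after the HCHF diet by the unadjusted threshold, 865 (92.3%) had a log2 fold change above 0 on chow as well, and 78.2% of the genes that did not pass in either direction were also above 0 there. Of the 69 lower genes, 4 were above 0 on chow. Of the 12 leading higher genes, 11 were above 0 on chow, 5 of them without overlap, against 7.4% of all genes on the higher side. All 12 leading lower genes were below 0 on chow, 2 of them without overlap, against 0.593% of all genes on the lower side. Because each animal gave both libraries, these are repeated measurements of 6 baboons.

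ENSPANG00000007731 had 46.5, 32.5 and 45.4 CPM on chow in high LDL-C baboons 4, 5 and 6, against 24.3, 14.2 and 24.7 CPM in low LDL-C baboons 1, 2 and 3, and did not overlap on either diet. Its log2 fold change was 1.99 on the HCHF diet and 0.96 on chow. Its high LDL-C values lay in like ranges on both diets, and its low LDL-C values were lower on the HCHF diet in each animal. Over all genes the median level also fell, from 36.4 to 24.4 CPM in baboon 1 and from 38.2 to 24.8 CPM in baboon 3. In baboon 2 it rose from 18.6 to 28.5 CPM. The test of the difference between the diets gave ENSPANG00000007731 an unadjusted p of 0.13 (edgeR). The higher gene on chromosome 1 from 9315284 to 9321033 had 260, 300 and 330 CPM on chow in high LDL-C baboons, against 229, 64.5 and 105 CPM in low LDL-C baboons (high over low, 1.90 on the HCHF diet and 1.15 on chow on the log2 scale). The only leading higher gene below 0 on chow, on chromosome 3 from 1222430 to 1258508, had 8.52, 15.1 and 19.7 CPM there in high LDL-C baboons, against 103, 4.37 and 6.74 CPM in low LDL-C baboons, and its chow difference rested on baboon 1.

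Among the lower genes, ENSPANG00000000653 had 367, 322 and 704 CPM on chow in high LDL-C baboons, against 230, 4060 and 873 CPM in low LDL-C baboons. The phenotypes overlapped on chow, since low LDL-C baboon 1 was the lowest animal and baboon 2 exceeded all others. The lower gene on chromosome 2 from 85956223 to 85974412 likewise was lowest in baboon 1 and highest in baboon 2, with 933, 1011 and 1262 CPM in high LDL-C baboons, against 785, 8604 and 6194 CPM in low LDL-C baboons. Low LDL-C baboon 2 on chow held the highest of all 12 libraries for 8 of the 12 lower genes and for 44 of the 69, against 5.31% of all 6742 genes. It held the lowest for 7 of the 12 higher genes, near its 47.6% over all genes. These counts stand beside its share of 89.3% in the 2 abundant genes, whose part in them was not tested. The lower genes on chromosome 4 from 31871434 to 31873431 and from 59439099 to 59468823 were the 2 that did not overlap on chow. The first had 114, 106 and 120 CPM in high LDL-C baboons, against 202, 126 and 124 CPM in low LDL-C baboons, and the second had 15.3, 15.1 and 17.7 CPM in high LDL-C baboons, against 31.2, 38.2 and 63.7 CPM in low LDL-C baboons.

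**Figure D5:**
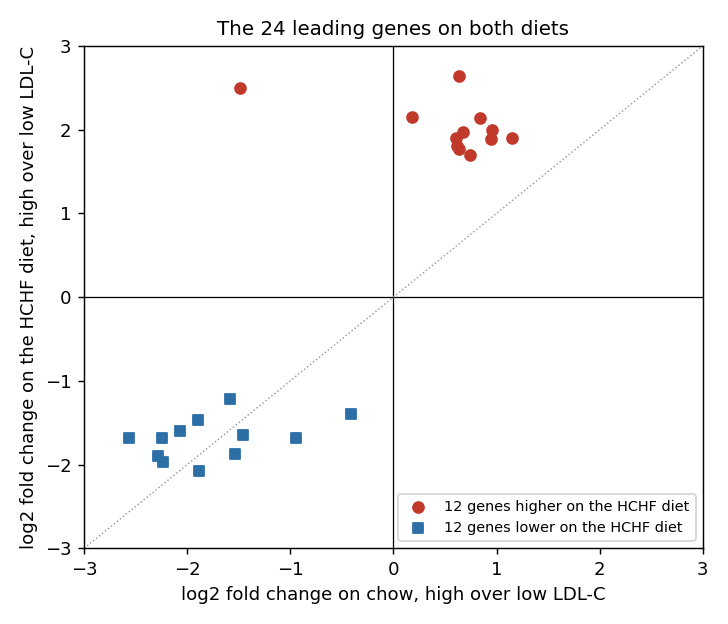
The 24 leading genes by log2 fold change (high over low LDL-C), with HCHF values on the vertical axis and chow values on the horizontal axis and a dotted line marking equal values. Of the 12 higher genes (red), 11 lie above 0 on both axes, and all 12 lower genes (blue) lie below 0 on both.

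The difference between the diets was tested in all 12 libraries with baboon as a term. No gene was called for a phenotype difference that departed between the HCHF diet and chow (0%, lowest adjusted p 0.999, edgeR with Benjamini-Hochberg adjustment). At an unadjusted p under 0.05 (edgeR), 31 genes (0.46%) were more positive on the HCHF diet and 15 (0.222%) more negative. Under TMM factors these counts were 88 (1.31%) and 96 (1.42%), and again none was called. Without baboon 2 in both diets 1227 genes were called, 1154 of them more positive on the HCHF diet, so this count rested on 1 animal. Of the 24 leading genes, only the gene on chromosome 3 from 1222430 to 1258508 reached an unadjusted p under 0.05 in this test (difference of 2.39, unadjusted p = 0.049, edgeR), and its chow values included the high one in baboon 1.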

How the data were processed

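RNA from the buffy coats of 6 baboons, each sampled on HCHF diet and on chow, was enriched for poly-A transcripts and sequenced in 12 libraries. The authors called bases with CASAVA 1.8, aligned reads to PapAnu2 with STAR 2.3.1j and quantified Ensembl transcripts with Partek Flow. What they deposited are estimated counts for each transcript, from the authors' expectation maximization step, without normalization. Here the 29300 transcript rows were summed over 27533 genes. Autosomal and mitochondrial genes with at least 10 counts in each HCHF library were kept and counts rounded. Depth without the 2 most abundant genes was 1944195 to 2874662 counts per HCHF library.

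edgeR 4.0.16 (quasi-likelihood F-test, two-sided, R 4.3.3) was fitted to 3 high and 3 low LDL-C libraries with the total without the 2 most abundant genes as library size, and p-values were Benjamini-Hochberg adjusted over 6742 genes. A gene was called at an adjusted p under 0.20 and an unadjusted p under 0.05. The chow libraries were fitted alike on the same genes, and the difference between diets with baboon as a term. Library measures were compared by exact permutation. The scripts were tested on simulated data.

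Leading genes were to be the 12 called genes per direction with the largest change, filled, where fewer were called, by the lowest p among non-overlapping genes at an unadjusted p under 0.05; the 2 most abundant genes and the mitochondrial genes were described as well. Members and lists were chosen with earlier results of these data known. Lists of cell markers and of lipid and immune genes had been drawn up by symbol and were not used here. Alternatives covered TMM factors, other totals, DESeq2 1.42.0, limma 3.58.1, filters, thresholds, an index term and leaving out each library. TMM with each library left out, totals also without mitochondrial genes, and the share of the 2 genes as a term were added after seeing the data. Animals were separate baboons, so the p-values measure spread between animals, of which 3 per group limit the precision.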

Additional observations from a re-analysis of the deposited data

How the results depend on the processing

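With 3 animals per phenotype the calls depended on scale and on single animals, and the cause was not tested. Against 0 called genes, 937 higher, 69 lower and a median log2 fold change of 0.44, the totals that included the 2 abundant genes gave 3209 called (by unadjusted p 3196 higher and 13 lower, median 1.04), and totals of the tested genes, these 2 among them, gave 3321 called (3312 higher, 9 lower, median 1.08). TMM gave 144 higher and 281 lower with a median of -0.01 (-0.0051 before rounding). DESeq2 called 96 (by unadjusted p 310 higher and 372 lower, median 0.036), with no adjusted p for 530 genes. Limma with quantile normalization gave 181 higher, 203 lower, a median of 0.0088 and a gap between genes over 1000 CPM and all genes of -0.0022, which that normalization sets near 0 by construction. No filter gave 527 called (1806 higher, 113 lower, median 0.57). A minimum of 50 counts gave 451 higher, the unadjusted p alone 1006 called, the spread of all 12 libraries 36 lower, and the index term 21 called. Totals also without mitochondrial genes gave 420 higher and a median of 0.31, and the share of the 2 genes as a term gave 22 lower.

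Leaving out each library gave 0 to 1610 called, 262 to 1566 higher, 28 to 109 lower, medians of 0.38 to 0.52 and gaps of -1.05 to -0.61. With TMM it gave 0 to 15 called (15 without high LDL-C baboon 4, 8 without low LDL-C baboon 1), 34 to 482 higher, 134 to 604 lower, medians of -0.047 to -0.0011 and gaps of -1.05 to -0.63. On chow TMM called 0 and leaving out libraries 0 to 171, and for the difference between diets it called 0 to 1227. None of the 24 leading genes changed sign in 607 values, of which 145 passed the threshold; they were chosen on these libraries. No paired analysis was possible because the labels do not say which high and low LDL-C baboons are related, and replicate numbers only name samples.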
